A study of Mus musculus with 12 samples.

Results

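Connective tissue cells surround themselves with a matrix in which collagen fibrils are bound and spaced by glycoproteins and proteoglycans, elastic fibres are laid on fibrillin microfibrils, and lysyl oxidases crosslink both. Fibroblast-like synoviocytes, which line the joint, make and remodel this matrix, and TNF is an inflammatory cytokine that activates them in arthritis. The genes described here encode the parts of that matrix other than the collagens: 10 adhesive and matricellular glycoproteins, 14 proteins of elastic fibres and microfibrils, 7 small leucine-rich proteoglycans, the large proteoglycan versican, 9 basement membrane proteins and 4 lysyl oxidases. They were taken from the deposited table by gene symbol and kept where the normalized count reached 10 in 3 or more of the 12 libraries. All 45 symbols of the list were found among the 53341 genes of the table, and all 45 were among the 18139 genes kept.

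The study asked which parts of the TNF response of mouse synoviocytes depend on SOXC, the transcription factors Sox4, Sox11 and Sox12. The 12 poly(A) RNA libraries, from cultured synoviocytes of SoxC mice, form 4 groups of 3. Cells labelled SoxC knockout had received the adenovirus Ade5CMV-Cre, with TNF (SoxC_KO_TNF) or without it (SoxC_KO). Control cells had received Ade5CMV-eGFP, with TNF (control_TNF) or without it (control). Cells with TNF had 16 h of recombinant human TNF at 10 ng/mL. Both arms carry a viral vector, so the vector is shared and Cre is not. The sources used here give neither strain, age, sex and number of mice of each group nor which part of the genes Cre removes.

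Sox4 was at 601 to 1086 normalized counts in SoxC_KO_TNF against 1625 to 3646 in control_TNF, and at 548 to 1433 in SoxC_KO against 1857 to 4238 in control. Sox11 was at 29.5 to 105 in SoxC_KO_TNF against 138 to 248 in control_TNF, and Sox12 was at 86.5 to 159 against 237 to 326. Without TNF the groups overlapped for both, at 26.8 to 175 in SoxC_KO against 153 to 272 in control for Sox11 and at 194 to 259 against 162 to 352 for Sox12. Each library held 19.6 to 23.1 M normalized counts. If the commonest low value of a library is read as 1 read pair, this is roughly 8.14 to 13.7 M read pairs. By that estimate SoxC_KO_TNF replicate 1 was the shallowest and may carry the most counting error in low genes. It had 25390 genes above 0, and the 12 libraries had 23428 to 25508. The 4 libraries numbered 3, 1 from each group, stood apart on the first principal component, which held 51.6% of the variance. Markers of macrophages, of which 8 of 9 listed were kept, summed to 3496 to 4047 in the libraries numbered 3 and to 1437 to 2116 in the other 8. Lyz2 led that sum, at 2172 to 2438 against 677 to 1014, and Csf1r and Adgre1 were apart too. Cd68 (93.6 to 105 against 59.5 to 94.7), Cd14, Itgam and C1qb overlapped. Mrc1 overlapped with lower values, at 0 to 26.4 against 16.7 to 42.0. Neutrophil markers, of which 2 of 7 were kept (Camp and S100a8), summed to 1409 to 2374 and to 477 to 1428 in the same libraries, and S100a9 was at 0 in each library but control_TNF replicate 2. Liver markers, of which 6 of 14 were kept, summed to 4969 in SoxC_KO_TNF replicate 1 and 830 in control_TNF replicate 2, against 130 to 340 elsewhere. Skeletal muscle markers, of which 10 of 14 were kept, summed to 1898 in SoxC_KO_TNF replicate 1 and 1704 in SoxC_KO replicate 1, against 557 to 1557 elsewhere. Among them Myh4 was at 277 and 188 in these 2 libraries against 0 to 13.3 elsewhere. The 10 fibroblast and synoviocyte markers, lubricin (Prg4) and podoplanin (Pdpn) among them, were kept throughout and summed to 189315 to 560973. In bulk RNA, fewer cells of a type and less RNA per cell cannot be told apart.

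The matrix genes were among the most abundant transcripts of these cells. Per kb of annotated exon, 22 of the 45 stood in the top 5% of the genes kept. The order, as the mean normalized count per kb over 12 libraries, was led by Sparc, a collagen-binding matricellular protein, at 27844 with a range of 18880 to 31014. Next came the crosslinking enzyme Lox at 17668 (7503 to 25399), thrombospondin 1 (Thbs1) at 14939 (6654 to 20855), the proteoglycan biglycan (Bgn) at 12727 (8436 to 15472) and fibronectin (Fn1) at 10244 (3309 to 16865). The ranges of neighbours in this order overlapped over the 12 libraries. These ranges do not give the order within a single library. The low end held tropoelastin (Eln) at 5.55, fibrillin 2 (Fbn2) at 10.9 and the microfibril-associated Mfap4 at 22.6 per kb. Fibrillin 1 (Fbn1), the paralogue of Fbn2, stood at 1591 per kb. As counts not divided by length, 19 members had a mean of at least 10000 and 11 a mean under 1000, and the 5 highest held 55.4% of the members' summed mean.

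**Figure D1:**
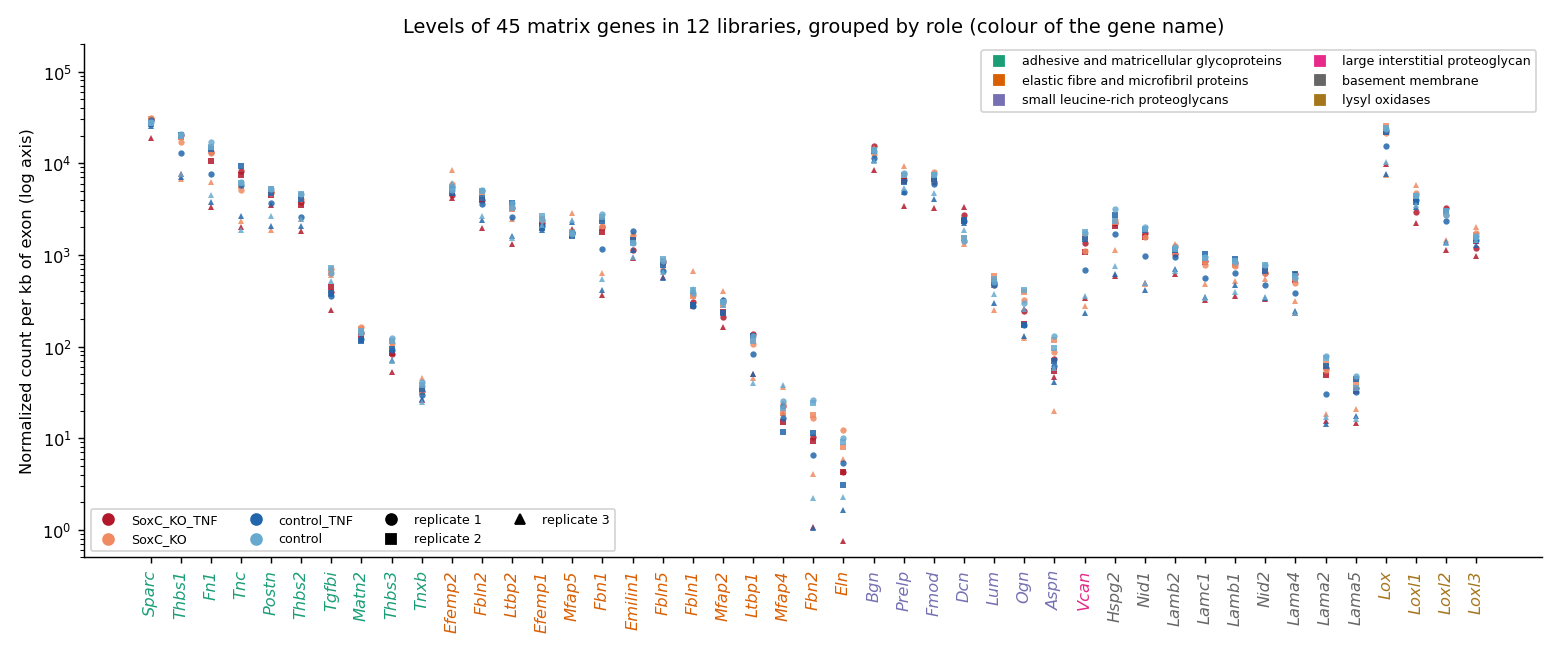
Normalized count per kb of exon (log axis) of the 45 matrix genes in the 12 libraries, with colours of points for groups, shapes for replicate numbers and colours of names for roles. Levels run from 5.55 for Eln to 27844 for Sparc, and the triangles of the libraries numbered 3 lie lowest for many of the long genes, such as Fbn2, Fbn1 and Vcan.

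The members took 4.94%, 4.48% and 2.42% of the normalized total in SoxC_KO_TNF replicates 1 to 3, and 4.75%, 5.05% and 2.94% in SoxC_KO. In control_TNF they took 3.68%, 4.89% and 2.35%, and in control 5.27%, 5.10% and 2.67%. The library numbered 3 was lowest in every group, and the groups overlapped. The difference between replicate 3 and the mean of replicates 1 and 2, in log2, was below 0 for 41 of 45 members in SoxC_KO_TNF, 32 in SoxC_KO, 39 in control_TNF and 40 in control. It went with the length of the exons: for the 15 members of at least 8 kb the median difference was -1.44, -1.04, -1.13 and -1.60 in those groups, and for the 13 members under 4 kb it was -0.44, 0.02, -0.15 and -0.35. All genes kept with a mean of at least 1000, members of that level included, had medians of -0.54, -0.99, -0.71 and -0.83 at 8 kb or more. Under 4 kb their medians were 0.30, 0.67, 0.47 and 0.54. Across the 45 members, which share libraries, Pearson's r of the difference with log2 exon length was -0.672, -0.448, -0.701 and -0.717. Fbn2 was lowest in SoxC_KO_TNF at -3.08, in control_TNF at -2.94 and in control at -3.45, and the small proteoglycan asporin (Aspn) was lowest in SoxC_KO at -2.32. Whether the macrophage markers, the length of the transcripts or another property of these 4 libraries sets the members' levels in them was not tested.

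**Figure D2:**
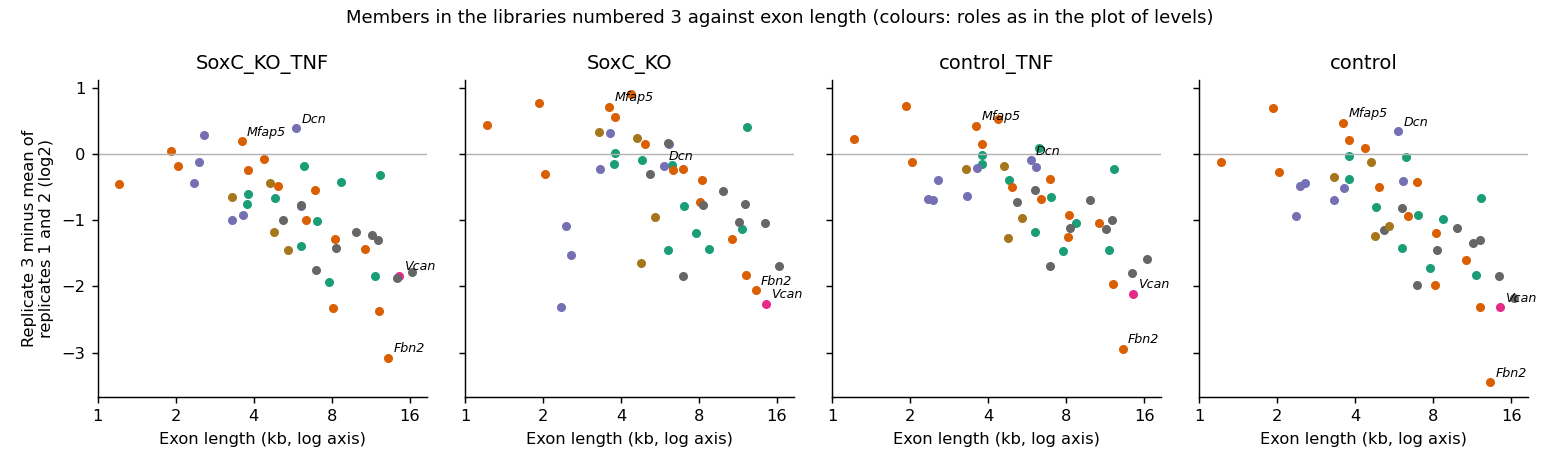
Log2 difference between replicate 3 and the mean of replicates 1 and 2 (vertical axis) against exon length in kb (log axis) for the 45 members, a panel per group. Most points lie below 0, and Fbn2 is lowest in SoxC_KO_TNF, control_TNF and control at -3.08, -2.94 and -3.45, while in SoxC_KO the short gene Aspn is lowest at -2.32.

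TNF raised decorin and lowered Tgfbi when its effect was averaged over SoxC_KO and control cells. Of 45 members these 2 passed an adjusted p of 0.05 in limma (Benjamini-Hochberg over 18139 genes), beside 1.17% of all genes. Within SoxC_KO cells 0 of 45 members passed, beside 0.292% of all genes, and within control cells 0 of 45, beside 0.32%. At an unadjusted limma p under 0.05, 12 members passed on average (1 higher and 11 lower with TNF, beside 8.17% of all genes), 10 members passed in SoxC_KO cells (1 higher and 9 lower with TNF, beside 7.38% of all genes) and 3 in control cells (1 higher and 2 lower, beside 4.21%). With the replicate number as a block, 3 members passed in SoxC_KO cells (Dcn, Tgfbi and Eln, beside 2.78% of all genes), 2 in control cells (Tgfbi and Fbn2, beside 1.71%) and 5 on average (Dcn, Tgfbi, Eln, Fbn2 and Fbln2, beside 5.19%). Without the 4 libraries numbered 3, which leaves 2 libraries a group, the counts were 1, 3 and 7 members, beside 1.10%, 1.56% and 3.80% of the 17600 genes then tested. The 8 genes of a TNF check list (Mmp13, Vcam1, Tnfaip3, Mmp9, Ccl5, Ccl3, Csf3 and Traf1) had higher means with TNF in both arms. The list was chosen with earlier results of these data known, so it checks the treatment only. Its sum, led by Mmp13 and Vcam1, was 44413 to 53989 in SoxC_KO_TNF against 14953 to 15644 in SoxC_KO. In control_TNF the sum was 40074 to 44922 against 14701 to 19598 in control.

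Decorin (Dcn, ENSMUSG00000019929, chr10:97479609-97518143 on the plus strand in mm10) is a small leucine-rich proteoglycan that binds collagen fibrils and TGF-beta. Its normalized counts were 15898, 13656 and 19328 in SoxC_KO_TNF, 8238, 9032 and 7638 in SoxC_KO, 13700, 13914 and 12927 in control_TNF, and 8325, 8937 and 10946 in control. Each library with TNF lay above each library without TNF, in both arms. The average TNF effect was a log2 change of 0.75 (SE 0.12, limma adjusted p = 0.0121). It was 0.96 in SoxC_KO cells (SE 0.18, limma adjusted p = 0.0546, 0.00585 with the replicate block) and 0.53 in control cells (SE 0.18, adjusted p = 0.631, 0.138 with the block). The difference between the arms was 0.43 (SE 0.25, limma adjusted p = 0.884). Without the 2 libraries with liver transcripts the average change was no longer called (limma adjusted p = 0.0995), and likewise without control replicate 1 (0.053) or control replicate 2 (0.0504). It was called without the 4 libraries numbered 3, at 0.73 (limma adjusted p = 0.00179).

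Tgfbi (ENSMUSG00000035493, chr13:56609523-56639562 on the plus strand in mm10) encodes a secreted, integrin-binding protein that carries the name of its induction by TGF-beta. It stood at 1487, 1698 and 939 in SoxC_KO_TNF, 2646, 2390 and 2271 in SoxC_KO, 1355, 1464 and 1394 in control_TNF, and 2417, 2744 and 1976 in control. All 6 libraries with TNF were below all 6 without it. The average change was -0.81 in log2 (SE 0.16, limma adjusted p = 0.0367). In SoxC_KO cells it was -0.87 (limma adjusted p = 0.243, 0.0151 with the replicate block) and in control cells -0.75 (0.503, 0.0385 with the block). The average call was lost without the libraries with liver transcripts (limma adjusted p = 0.138) and without any 1 of 8 libraries: SoxC_KO_TNF replicate 1 (0.0695), SoxC_KO replicates 1 (0.116) and 2 (0.0845), control_TNF replicates 1 (0.112), 2 (0.0801) and 3 (0.0811), and control replicates 1 (0.11) and 2 (0.126). The log2 change stayed between -0.89 and -0.68, and the call held without the 4 libraries numbered 3 (limma adjusted p = 0.00253).

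**Figure D3:**
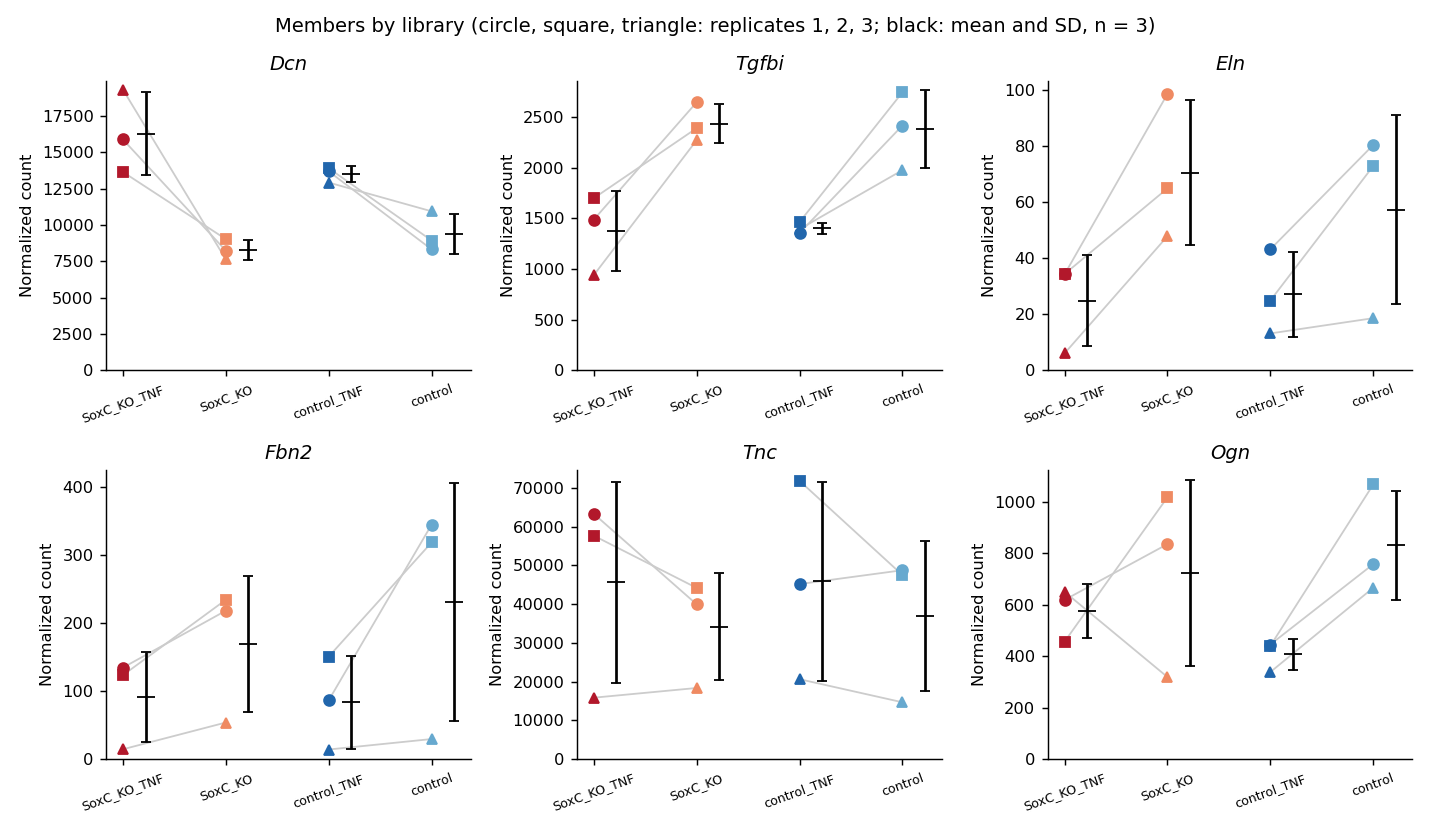
Normalized counts of 6 members by library, with group means and SD (n = 3) in black and grey lines joining equal replicate numbers. Dcn is higher and Tgfbi lower in every TNF library than in every library without TNF, while Tnc, Ogn and Fbn2 overlap between groups in at least 1 arm.

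Sequence at the start of the genes was read for the members with an entry in the RefSeq promoter table of GRCm38.p6 (300 bases around each start), which matched 29 of 45. Of the members called for TNF on average in either fit, Tgfbi and Fbln2 have an entry, and both windows are printed to show the letters behind the counts that follow. Capitals mark the match to ACAAAG, here read on the opposite strand as CTTTGT.
Tgfbi, chr13:56609336-56609635, plus strand: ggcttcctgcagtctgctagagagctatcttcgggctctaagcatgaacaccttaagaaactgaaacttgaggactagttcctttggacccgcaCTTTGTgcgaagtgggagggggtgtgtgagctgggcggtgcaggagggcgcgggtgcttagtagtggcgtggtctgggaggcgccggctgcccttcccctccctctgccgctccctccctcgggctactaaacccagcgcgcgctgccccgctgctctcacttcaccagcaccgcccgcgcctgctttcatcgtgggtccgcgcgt
Fbln2, chr6:91212514-91212813, plus strand: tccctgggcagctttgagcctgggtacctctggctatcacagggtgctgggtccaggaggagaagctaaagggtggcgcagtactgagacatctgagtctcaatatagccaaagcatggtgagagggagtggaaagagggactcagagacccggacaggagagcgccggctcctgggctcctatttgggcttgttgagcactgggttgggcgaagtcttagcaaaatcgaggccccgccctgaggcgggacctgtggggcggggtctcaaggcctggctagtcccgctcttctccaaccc

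Because the series names SOX4 and RELA, motifs of their kinds were searched on both strands. A kB-type motif of 10 letters, given here by its name alone, was in 0 of 29 members' windows, against 1.89% of the 27025 genes of the table. The SOX-type motif ACAAAG was in 3 of 29 (10.3%, against 21.0% of genes) and the SOX-type ACAAT in 10 of 29 (34.5%, against 34.4%). The AP-1-type TGANTCA was in 2 of 29 (6.90%, against 8.97%). The window of Tgfbi held 1 ACAAAG match and none of the other motifs, and the window of Fbln2 held none of them. A match is a description of these letters only.

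Among the adhesive and matricellular glycoproteins, 1 of 10 (Tgfbi) was called for TNF on average, beside 1.17% of all genes. The median change was -0.31 in SoxC_KO cells and -0.27 in control cells. Fibronectin (Fn1), the most abundant of them as a count, is the integrin-binding scaffold on which other matrix assembles. Its counts were 155883, 122901 and 38668 in SoxC_KO_TNF, 151398, 171440 and 73770 in SoxC_KO, 88491, 165946 and 44194 in control_TNF, and 197067, 174513 and 52202 in control. The library numbered 3 was lowest in each group and the groups overlapped, with an average TNF change of -0.47 (SE 0.47, limma adjusted p = 1.0). Tenascin C (Tnc), a matricellular protein of inflamed and healing tissue, was 1 of 4 members with a positive average change. It was at 63356, 57698 and 15842 in SoxC_KO_TNF, 39965, 44205 and 18351 in SoxC_KO, 45192, 71862 and 20622 in control_TNF, and 48770, 47529 and 14658 in control. Its TNF change was 0.28 in SoxC_KO cells and 0.33 in control cells (SE 0.66 each, limma adjusted p = 0.912 and 0.998), and the groups overlapped. Periostin (Postn), which binds collagen and tenascin, was at 42528, 39603 and 30577 in SoxC_KO_TNF, 41524, 45657 and 16141 in SoxC_KO, 32383, 41559 and 17879 in control_TNF, and 44987, 45508 and 23038 in control. The groups overlapped there too. Sparc, Thbs3 and Matn2 did not overlap in SoxC_KO cells, lower with TNF, and none was called. Thbs3 shares 318 exon bases with Mtx1 on the opposite strand, whose mean was 708. Without a stated strand setting the reads of that pair may not be separable. Thbs1, Thbs2 and Tnxb overlapped between the TNF groups in both arms.

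Elastic fibre and microfibril proteins had a median TNF change of -0.44 in SoxC_KO cells and -0.27 in control cells. In each arm 13 of 14 had a negative mean change, against 50.9% (SoxC_KO) and 52.1% (control) of all genes. None of the 14 was called on average without the block, beside 1.17% of all genes, and 3 were with it, beside 5.19%. Eln encodes tropoelastin, the elastic core of the fibre, and was near the floor of the table. Its counts were 34.3, 34.4 and 6.04 in SoxC_KO_TNF, 98.7, 65.0 and 47.9 in SoxC_KO, 43.2, 24.9 and 13.2 in control_TNF, and 80.5, 73.0 and 18.6 in control. Groups were apart in SoxC_KO cells and overlapped in control cells, where control replicate 3 was low. The average change was -1.34 (SE 0.51, limma adjusted p = 0.431), and it was called with the replicate block (adjusted p = 0.00677) and without the libraries numbered 3 (-1.20, adjusted p = 0.0221). Fbn2, the fibrillin most expressed before birth, was at 134, 123 and 14.4 in SoxC_KO_TNF, 218, 234 and 53.7 in SoxC_KO, 86.4, 151 and 14.0 in control_TNF, and 345, 319 and 29.4 in control. In every group the library numbered 3 was the lowest, and within each replicate number the TNF library was lower in both arms. The average change of Fbn2 was -1.25 (SE 0.84, limma adjusted p = 0.952, 0.00308 with the block), and -1.17 without the libraries numbered 3 (adjusted p = 0.00641). Fibulin 2 (Fbln2), which bridges microfibrils and other matrix, was the most abundant of this role as a count. It was at 25097, 25174 and 12556 in SoxC_KO_TNF, 31942, 30919 and 26529 in SoxC_KO, 22807, 26440 and 15311 in control_TNF, and 32445, 31668 and 16734 in control. The groups were apart in SoxC_KO cells and overlapped in control cells. The change of Fbln2 was -0.44 on average (SE 0.24, limma adjusted p = 0.775, 0.0488 with the block).

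Mfap2, which sits on fibrillin microfibrils, was at 257, 286 and 197 in SoxC_KO_TNF, 372, 344 and 484 in SoxC_KO, 387, 283 and 386 in control_TNF, and 368, 371 and 341 in control. SoxC_KO_TNF lay below SoxC_KO without overlap (-0.70, SE 0.22, limma adjusted p = 0.375), and the control pair overlapped (-0.04). Efemp2 (fibulin 4), needed for elastic fibre assembly, was at 17191, 20344 and 15890 in SoxC_KO_TNF, 22313, 20759 and 31597 in SoxC_KO, 20797, 18109 and 21514 in control_TNF, and 19552, 20340 and 23069 in control, apart in SoxC_KO cells (-0.47, limma adjusted p = 0.583) and overlapping in control cells. Emilin1, an elastin-associated glycoprotein, was at 5583, 7138 and 4522 in SoxC_KO_TNF, 8126, 6794 and 8257 in SoxC_KO, 8941, 7104 and 5620 in control_TNF, and 6725, 6656 and 4729 in control. The mean of Emilin1 was lower with TNF in SoxC_KO cells (-0.45) and higher in control cells (0.25), with overlap in both. Mfap4 was at 42.7, 29.0 and 36.5 in SoxC_KO_TNF, 45.7, 35.8 and 69.8 in SoxC_KO, 31.8, 22.2 and 44.8 in control_TNF, and 48.6, 41.5 and 73.2 in control. It overlapped between groups in both arms, and 89 of its exon bases are shared with Mapk7 on the opposite strand, whose mean was 545, so that without a stated strand setting the reads of the pair may not be separable. Among the others, the mean TNF difference in SoxC_KO and in control cells was -0.44 and -0.60 for Fbn1, -0.11 and -0.27 for Efemp1, -0.61 and -0.37 for Fbln1, and 0.22 and -0.05 for Ltbp1. These 4 were not called with or without the block, and Fbln1 was called on average without the libraries numbered 3 (-0.40, limma adjusted p = 0.0428).

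The small leucine-rich proteoglycans, which bind and space collagen fibrils, split. Dcn rose on average, lumican (Lum) was near 0 at 0.04, and the other 5 had negative mean changes that were not called. Biglycan (Bgn), the close relative of decorin, was at 94364, 84084 and 51452 in SoxC_KO_TNF, 76717, 84836 and 89803 in SoxC_KO, 68805, 82537 and 66001 in control_TNF, and 83835, 84996 and 64009 in control. Its average change was -0.13 (SE 0.16, limma adjusted p = 1.0) and its groups overlapped in both arms. Osteoglycin (Ogn) was at 619, 456 and 651 in SoxC_KO_TNF, 836, 1018 and 319 in SoxC_KO, 446, 440 and 338 in control_TNF, and 758, 1068 and 666 in control. In control cells Ogn was lower with TNF in every library (-1.01, SE 0.38, limma adjusted p = 0.896), and in SoxC_KO cells the groups overlapped, with SoxC_KO replicate 3 low. Without the libraries numbered 3 the average change of Ogn was called (-0.91, limma adjusted p = 0.0102). Lum was at 1205, 1289 and 1144 in SoxC_KO_TNF, 1153, 1436 and 606 in SoxC_KO, 1156, 1206 and 732 in control_TNF, and 1238, 1330 and 915 in control. Aspn was at 173, 126 and 109 in SoxC_KO_TNF, 204, 277 and 46.9 in SoxC_KO, 145, 166 and 96.2 in control_TNF, and 303, 229 and 137 in control. Both overlapped between groups in each arm, and the lowest library of both was SoxC_KO replicate 3. For Prelp and fibromodulin (Fmod) the mean differences were -0.63 and -0.49 in SoxC_KO cells and -0.37 and -0.26 in control cells.

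Versican (Vcan), the large hyaluronan-binding proteoglycan, was at 19588, 15561 and 4891 in SoxC_KO_TNF, 15992, 22900 and 3988 in SoxC_KO, 9772, 21617 and 3362 in control_TNF, and 25190, 25468 and 5090 in control. The SD within each group was larger than the TNF difference of the group means. On the log2 scale the TNF change was 0.01 in SoxC_KO cells and -0.73 in control cells (SE 0.89 each, limma adjusted p = 0.999 and 0.998).

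Basement membrane genes had negative mean TNF changes, 9 of 9 in each arm, against 50.9% (SoxC_KO) and 52.1% (control) of all genes. Their medians were -0.20 in SoxC_KO cells and -0.18 in control cells. The signs did not hold in every pair of libraries. Between replicates 1 of SoxC_KO cells, Lama2, Lama4, Lamb1, Lamc1 and Nid1 were higher with TNF, and Hspg2, Lama5, Lamb2 and Nid2 were lower. Between replicates 3 of SoxC_KO cells, all but Nid1 were lower. In any of the fits named above 0 of 9 were called, beside 1.17% of all genes on average without the block and 5.19% with it. Perlecan (Hspg2), the heparan sulfate proteoglycan of basement membranes and the most abundant of the 9 as a count, was at 31945, 29208 and 8346 in SoxC_KO_TNF, 34253, 32893 and 16362 in SoxC_KO, 23883, 39387 and 8803 in control_TNF, and 44904, 33417 and 10764 in control. The groups overlapped and the library numbered 3 was lowest in each. Laminin chains ran from -0.47 (Lamb2) to -0.07 (Lama4) in SoxC_KO cells and from -0.63 (Lama2) to -0.03 (Lamb1) in control cells. The nidogens, which link laminin to collagen IV, had mean differences of -0.02 (Nid1) and -0.26 (Nid2) in SoxC_KO cells and of -0.45 and -0.33 in control cells. Nid2 shares 437 exon bases with Rtraf on the opposite strand, whose mean was 2946, so their reads may not be separable either.

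Lysyl oxidases crosslink collagen and elastin. Lox was at 106481, 104735 and 46621 in SoxC_KO_TNF, 103385, 121357 and 35849 in SoxC_KO, 73525, 105835 and 36507 in control_TNF, and 113167, 116709 and 48834 in control. Its groups overlapped, with changes of 0.07 in SoxC_KO cells and -0.39 in control cells (SE 0.56 each, limma adjusted p = 0.977 and 0.998). Loxl3 was at 5518, 6585 and 4436 in SoxC_KO_TNF, 7993, 7588 and 9211 in SoxC_KO, 6735, 6853 and 5970 in control_TNF, and 7409, 7147 and 6706 in control. SoxC_KO_TNF lay below SoxC_KO without overlap (-0.60, SE 0.18, limma adjusted p = 0.325), and the control pair overlapped (-0.12). Loxl3 shares 535 exon bases with Htra2 on the opposite strand, whose mean was 1262. Loxl1, which acts on elastin, was likewise apart in SoxC_KO cells (-0.72, limma adjusted p = 0.378) and overlapped in control cells (-0.15), and Loxl2 was at -0.04 and -0.05.

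Seen over the whole list, the mean TNF change was below 0 for 37 of 45 members in SoxC_KO cells (82.2%, against 50.9% of all genes) and for 42 of 45 in control cells (93.3%, against 52.1%). The median change was -0.30 in SoxC_KO cells and -0.27 in control cells, against -0.01 and -0.02 over all genes. These counts and medians depend on single libraries. Without SoxC_KO_TNF replicate 3 the median in SoxC_KO cells was 0.03 and 24 of 45 members were above 0, against 8 with all libraries. Without control_TNF replicate 3 the median in control cells was -0.05 and 19 members were above 0, against 3 with all libraries. The median in control cells was also -0.13 without control replicate 1, -0.12 without control replicate 2 and -0.49 without control replicate 3. Without all 4 libraries numbered 3 the medians were -0.15 and -0.31. Between control_TNF and control libraries of equal number, the members of at least 8 kb had a median of -0.74 for number 1, -0.07 for number 2 and -0.23 for number 3. Between SoxC_KO_TNF and SoxC_KO libraries the same medians were 0.03, -0.21 and -0.59. Groups did not overlap, lower with TNF, for 13 members in SoxC_KO cells (28.9%, against 6.4% of all genes) and for 4 in control cells (8.89%, against 4.11%). The 4 were Efemp1, Matn2, Ogn and Tgfbi. Dcn alone did not overlap in the higher direction, in both arms (2.22% of members, against 6.43% and 4.6% of all genes). Between libraries of equal number, 16 members were lower with TNF in all 6 pairs (35.6%, against 5.33% of all genes): Fbn1, Fbn2, Eln, Fbln1, Fbln2, Fbln5, Efemp1, Mfap4, Fmod, Prelp, Loxl1, Loxl3, Matn2, Nid2, Tgfbi and Thbs2. Dcn was the 1 member higher in all 6 pairs (4.91% of all genes were). The summed markers of smooth muscle and pericytes, of which 6 of 7 were kept, were lower with TNF, led by Cnn1. They summed to 4860 to 6804 in SoxC_KO_TNF against 9582 to 11844 in SoxC_KO, and to 6489 to 6731 in control_TNF against 9634 to 10266 in control. Rgs5 and Cspg4 of that list overlapped between the TNF groups in both arms. The mean of Rgs5 was 376 with TNF against 319 in SoxC_KO cells, and 310 against 390 in control cells. For Cspg4 the means were 744 against 807 and 785 against 745. Osteoblast markers, of which 3 of 7 were kept, summed to 709 to 1219 against 1799 to 2096 and to 951 to 1188 against 1474 to 1990 in the same pairs, nearly all of it Alpl. The 10 fibroblast and synoviocyte markers summed to 189315 to 450204 in SoxC_KO_TNF against 387132 to 560973 in SoxC_KO, and to 240899 to 447146 in control_TNF against 270679 to 531242 in control. That sum was lower with TNF in all 6 pairs of equal number, and most of it came from the collagen chains Col1a1, Col1a2 and Col3a1. The mean of Cdh11 was higher with TNF, at 10702 against 6992 in SoxC_KO cells and 9029 against 8986 in control cells. Pdgfra was at 2865 against 2578 and at 2451 against 3115. Both genes overlapped between the TNF groups in each arm. The means of Pdgfrb, Thy1 and Prg4 were lower with TNF in both arms. Vim was at 27555 to 42135 against 50640 to 54422 and at 35247 to 41508 against 49545 to 52068 in those pairs of groups, and Pdpn was higher with TNF, at 17244 to 22224 against 12914 to 14109 and at 18014 to 20475 against 12451 to 14917. Cnn1, Myh11, Alpl, Vim and Pdpn were above 0 in every library. Other markers of these lists, Ibsp, Phex, Bglap and Kcnj8, were at 0 in at least 1 library. The part of the markers in the members' changes was not tested.

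**Figure D4:**
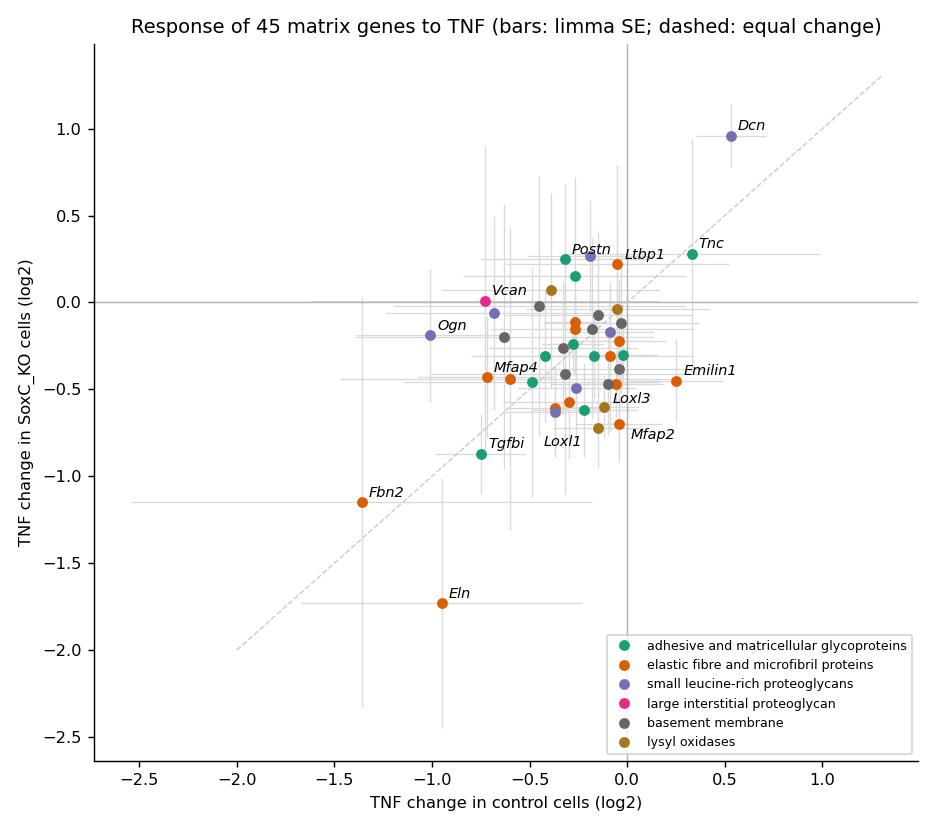
TNF change of each member in SoxC_KO cells (vertical) against that in control cells (horizontal), in log2(normalized count + 1), with limma SE as bars and colours for roles. Most points lie below 0 on both axes, Dcn stands apart at 0.96 in SoxC_KO cells and 0.53 in control cells, and Eln and Fbn2 are lowest with wide bars.

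For the SoxC knockout, none of the 45 members passed an adjusted p of 0.05 in limma. With TNF, 0 of 45 members and 0 of 18139 genes passed in limma (0% called). At an unadjusted p under 0.05 there was 1 member, Mfap2, beside 1.28% of all genes. Without TNF, 0 members and 0 genes passed (0% called), and 0 members had an unadjusted limma p under 0.05, beside 0.97% of all genes. With the replicate block 0 members were called in either comparison. Averaged over both, 0 members passed in limma, beside 0% of all genes, and 0 at an unadjusted p under 0.05, beside 0.772%. Sox4 was the 1 gene called there with the block (0.00551% of genes), with a change of -1.46 and a limma adjusted p of 0.0146. Without the block Sox4 was at -1.30 with TNF and -1.62 without TNF and was not called (limma adjusted p = 0.997 and 0.999). A fit that did not call Sox4 cannot show that the members were unchanged. The members' median knockout change was 0.04 with TNF and 0.04 without, below 0 for 20 of 45 members with TNF (against 50.5% of all genes) and 17 of 45 without (against 51.3%). Each library left out of its own comparison moved these values. With TNF the median ran from -0.22 (without control_TNF replicate 3) to 0.31 (without SoxC_KO_TNF replicate 3), with 10 and 37 members above 0. Without TNF it ran from -0.23 (without control replicate 3) to 0.23 (without SoxC_KO replicate 3), with 12 and 40 members above 0. The members ran from -0.52 (Mfap2) to 0.49 (Ogn) with TNF and from -0.61 (Aspn) to 0.48 (Eln) without.

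With TNF, Mfap2 had the smallest p of the members (-0.52 in SoxC_KO_TNF against control_TNF, SE 0.22, limma adjusted p = 0.997), and control_TNF replicate 2, at 283, lay within the knockout range. Ogn was the 1 member whose groups did not overlap, higher in SoxC_KO_TNF (0.49, SE 0.38, limma adjusted p = 0.997), which is 2.22% of members against 2.82% of all genes, and 0 did not overlap in the lower direction, against 2.34% of all genes. Postn was at 0.37 (SE 0.43) with overlap. Without TNF, Emilin1 (0.37, SE 0.24), Loxl3 (0.22, SE 0.18) and Sparc (0.15) were higher in SoxC_KO without overlap, 6.67% of members against 2.39% of all genes, each with a limma adjusted p of 0.999. In the lower direction 0 members did not overlap, against 1.98% of all genes. Aspn was at -0.61 (SE 0.56), Ogn at -0.33 and Dcn at -0.17, where SoxC_KO replicate 3 was the lowest library of all 3 genes.

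**Figure D5:**
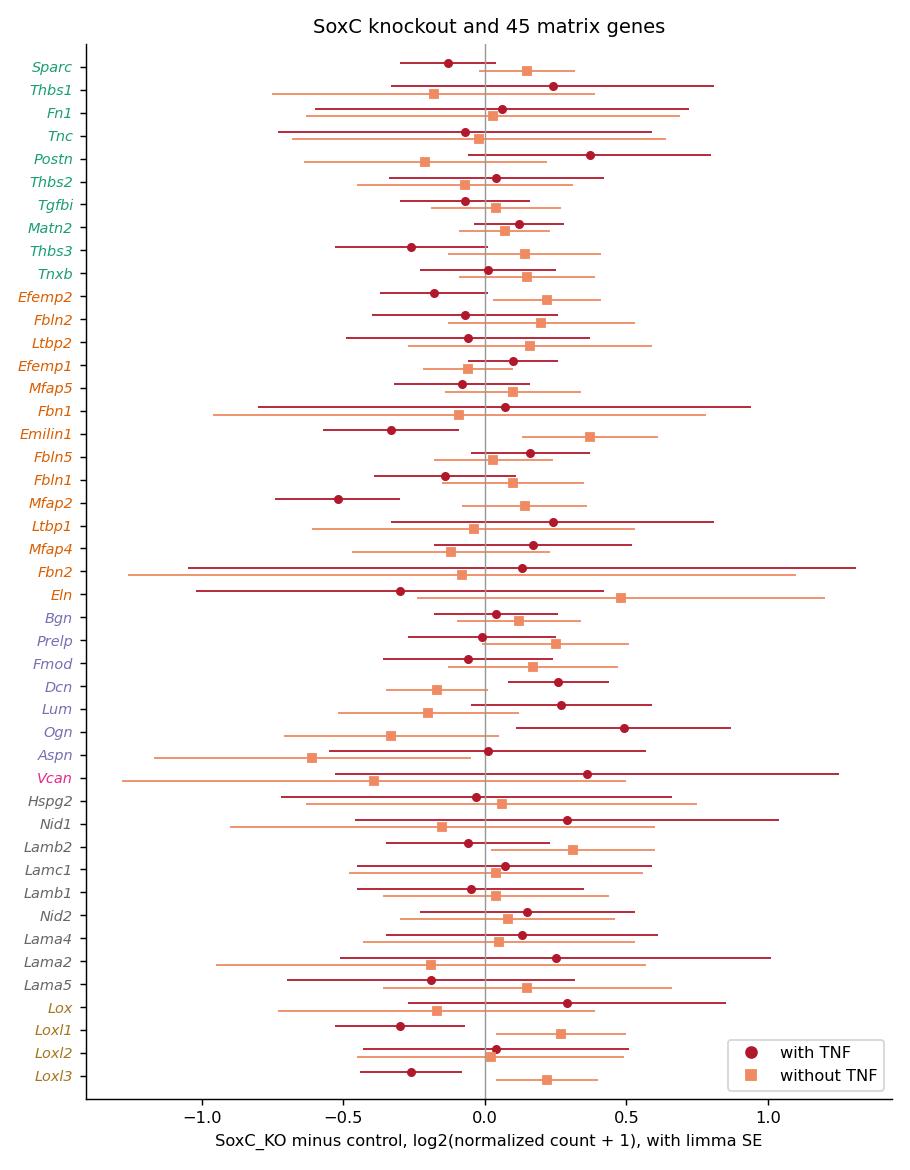
Knockout change of each of the 45 members with TNF (circles, SoxC_KO_TNF minus control_TNF) and without it (squares, SoxC_KO minus control), in log2 with limma SE. The points lie on both sides of 0, from -0.61 for Aspn without TNF to 0.49 for Ogn with TNF, and 0 of 45 members passed the adjusted threshold in either comparison.

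The TNF change did not differ detectably between SoxC_KO and control cells for any member. For the interaction, 0 of 45 members and 0 of 18139 genes passed in limma (0% called), with 0 members at an unadjusted p under 0.05, beside 1.51% of all genes. With the block 0 members passed the adjusted threshold, beside 0% of all genes. An unadjusted limma p under 0.05 was then held by 5 of 45 members, beside 3123 of 18139 genes. The smallest p-values among the members belonged to Mfap2 (-0.65, SE 0.31), Emilin1 (-0.70, SE 0.33) and Loxl3 (-0.48, SE 0.25), more negative in SoxC_KO cells, and to Dcn (0.43, SE 0.25) and Ogn (0.82, SE 0.54), more positive there, each with a limma adjusted p of 0.884. A p above the threshold does not show that the arms responded alike. The comparisons within and between arms share libraries, so equal signs across them are not independent.

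Calls among other genes of the matrix pathway depended on the replicate block. Of 26 integrins and other matrix receptors, 1 rose with TNF in control cells, beside 0.32% of all genes: Itgb3, the beta 3 integrin chain that binds fibronectin and vitronectin (1.23, SE 0.22, limma adjusted p = 0.0499, and 1.18 on average, adjusted p = 0.00291). Of 17 collagen and matrix modifying enzymes tested, 1 rose there: Fam20c, a kinase of secreted proteins (1.21, SE 0.22, limma adjusted p = 0.0499, and 0.96 on average, adjusted p = 0.00942). These were also the calls on average in the 2 lists, beside 1.17% of all genes. In SoxC_KO cells 0 genes of the 5 lists were called for TNF without the block, beside 0.292% of all genes. Itgb3 was at 1.13 there (limma adjusted p = 0.0782, 0.00164 with the block) and Fam20c at 0.72 (adjusted p = 0.331, 0.031 with the block), so both were called in SoxC_KO cells once the block was used. Of 55 further matrix glycoproteins and proteoglycans tested, 36 genes of glycosaminoglycan synthesis and 16 TGF-beta receptors, SMADs and target genes, 0 were called for TNF in either arm or on average without the block, with medians on average of -0.17, 0.00 and -0.21.

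With the block, 4 receptors were called for TNF in SoxC_KO cells, beside 2.78% of all genes: Itgb3, the collagen-binding integrin chain Itga2 (1.58, limma adjusted p = 0.00353) and Itgav (1.01, 0.026) were higher, and Itga11, another collagen-binding chain, was lower (-1.11, 0.0135). In control cells 1 receptor was higher and 3 were lower with the block, beside 1.71% of all genes, and on average 3 were higher and 3 lower, beside 5.19%. Of the further glycoproteins and proteoglycans, 3 were lower in SoxC_KO cells with the block, among them the cartilage matrix protein Comp (-0.88, limma adjusted p = 0.02), 1 was lower in control cells (Ntn4, -0.57, adjusted p = 0.0346), and on average 6 were lower and 1 higher. Of the glycosaminoglycan synthesis genes, 1 was higher in SoxC_KO cells with the block (Ext1, a heparan sulfate polymerase, 0.60, limma adjusted p = 0.0207), 0 in control cells and 3 on average. Of the TGF-beta list, Tgif1 was higher in SoxC_KO cells (0.56, limma adjusted p = 0.0335), 0 were called in control cells, and on average 1 was higher and 1 lower. Of the modifying enzymes, 1 was higher in each arm and 2 on average. Knockout calls in these 5 lists were 0 without the block, with and without TNF.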

How the data were processed

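Poly(A) RNA of 12 libraries was measured as paired reads. The deposited table holds log2 values, normalized per the file headers. Per the submitters' processing notes, the authors used DESeq and the mm10 genome. The sources used here do not give the authors' aligner, gene annotation or strand setting. The table adds no pseudocount and lists values at or under 1 as 0. The planned design assumed linear values, so the deposited log2 values were raised to the power of 2 and analysed as log2(normalized count + 1), which understates changes of low genes. Low values were whole multiples of their commonest value for 41.2% to 48.1% of genes (tolerance 0.01), so reads could not be recovered and count models were not used.

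Genes were kept where 3 or more libraries reached a normalized count of 10 (18139 genes). A limma 3.58.1 model in R 4.3.3 with 1 mean per group and an intensity trend was fitted, with Benjamini-Hochberg adjustment over these genes and a threshold of 0.05, and the code was tested on simulated data. Alternatives were other pseudocounts, filters and scalings (TMM factors, quantile), a replicate block, other variance settings, and left-out libraries. Exact permutation tests of 3 against 3 cannot go below 0.1 and are not printed. Levels between genes were compared per kb of exon in GENCODE M21, where 41 of 45 members have the coordinates of the table. Values in every library are given for members called in either fit, the most abundant of each role, and the 3 per direction with the smallest p in each pairwise contrast and the interaction with a mean of at least 50. The members, lists and left-out libraries were chosen with earlier results of these data known.

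Whether libraries of a group are separate animals or cultures is not in the labels, and the p-values then measure only the spread between these samples, which may be technical. Pairing by replicate number was checked as the correlation of same-numbered libraries after group means were removed: 0.340, 0.148 and 0.501 for TNF in SoxC_KO, 0.103, 0.550 and 0.715 for TNF in control, 0.457, 0.515 and 0.707 for knockout without TNF, and 0.0537, 0.189 and 0.526 for knockout with TNF. Under a cutoff of 0.1 the numbers pair the first 3 comparisons. The libraries numbered 3 stand apart in every group, and this check cannot tell pairing from that.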

Additional observations from a re-analysis of the deposited data

How the results depend on the processing

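Counts of members called moved for the TNF comparisons only. In SoxC_KO cells (0 in the analysis as reported) the count was 3 with the replicate block, 1 with a filter at 50 and 1 without the 4 libraries numbered 3. In control cells (0) it was 2 with the block, 3 without the libraries numbered 3 and 2 with both. On average (2) it was 5 with the block, 7 without the libraries numbered 3, 5 with both, 1 without the intensity trend, 0 without a filter and 0 without the libraries with liver transcripts, and 0 to 3 when each library was left out in turn. The block without the libraries numbered 3 was chosen after seeing the data. The replicate block left the 4 other comparisons at 0 members. On average over the arms Dcn was called in 20 of 24 alternatives (0.68 to 0.81) and Tgfbi in 13 of 24 (-0.89 to -0.68). No pseudocount or scaling moved a count.

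Among named members none that was called reversed. Without SoxC_KO replicate 3, Aspn (0.16) and Ogn (0.18) were above 0 for knockout without TNF, and Lum (-0.09) and Postn (-0.23) below 0 for TNF in SoxC_KO cells. Without the 4 libraries numbered 3, with or without the block, Ogn was at 0.04, Lum at -0.05 and Postn at -0.09 in those comparisons. Tnc in control cells was at -0.09 without control_TNF replicate 2 or without the libraries with liver transcripts, and at -0.25 without control replicate 3. Leaving out libraries in turn gave ranges of -1.10 to 0.16 (Aspn), -0.66 to 0.18 (Ogn), -0.09 to 0.53 (Lum), -0.23 to 0.52 (Postn) and -0.25 to 0.82 (Tnc). The cause was not tested. Depth limits Eln and Mfap4, with means under 100.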
